A study of Caenorhabditis elegans with 8 samples.

Results

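The reads of small RNAs at each gene were compared in zsp-1 mutant and wild-type Caenorhabditis elegans that were eating bacteria with oma-1 double-stranded RNA (dsRNA). The comparison rests on 4 of the 8 libraries of the series, 2 of each genotype, picked by their labelled strain and food. Of the 20191 genes in the files, 4567 had enough reads to be tested.

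Both groups were whole animals grown at 20 °C on HT115, an Escherichia coli strain used for RNA interference (RNAi) by feeding, here expressing oma-1 dsRNA. The wild type was strain N2, and the mutant was strain YY1683. Its genotype label reads zap-1(-), the series title writes zsp-1(-), and no allele is given. The age label is day 1 gravid adults, while the extraction text speaks of young adults. The 4 other libraries hold the same strains on HT115 with the empty vector L4440. Whether the 2 libraries of a group are separate cultures is not stated. The p-values below reflect the spread of these libraries and nothing more, and that spread may be technical.

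RNAi by feeding starts when dsRNA from the gut spreads through the animal and Dicer cuts it into primary small interfering RNAs (siRNAs). Argonautes loaded with these mark matching messenger RNAs, on which RNA-dependent RNA polymerases make many secondary siRNAs, the 22G siRNAs, which carry a 5′ triphosphate. Germline genes also have 22G siRNAs of their own without any dsRNA, made in and around germ granules. ZSP-1, also called PID-2, is a protein of the Z granule, the part of the germ granule linked to the inheritance of RNAi. OMA-1 is a CCCH zinc-finger protein of maturing oocytes and the standard target for following inherited RNAi.

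The 4 libraries held 277543 and 269876 reads in wild type and 228338 and 172615 in the mutant. Levels are CPM, each library's reads set to a common total and scaled by TMM, a method of edgeR that centres the libraries on the bulk of the genes. A single read was worth 3.34 to 6.34 CPM, and at 136908 reads per library 8443 and 8214 genes were expected to have a read in wild type, against 7548 and 7440 in the mutant. Pearson's r of log2 CPM across genes was 0.915 and 0.916 within genotypes and 0.664 to 0.704 between them; genes are not independent replicates. The tissue label is whole body, and defining markers of the germline held many reads while those of muscle, intestine and hypodermis held almost none. The germline markers glh-1, pgl-1 and rme-2 held 354, 462 and 239 reads over the 4 libraries. The muscle genes unc-54, myo-3 and unc-15 held 1, 0 and 0, the intestine genes vit-2, ges-1 and elt-2 held 1 each, and the hypodermis genes dpy-7 and rol-6 held 0. Longer lists held a few more reads, given as 2 wild-type and 2 mutant libraries. The 14 hypodermis markers held 14, 22, 23 and 13, the 14 muscle markers 12, 7, 3 and 3, and the 16 intestine markers 3, 2, 4 and 5. In RNA from whole animals, fewer cells of a type and fewer small RNAs per cell cannot be told apart.

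The targeted gene oma-1 was the most counted gene in each of the 4 libraries. It lies on chromosome IV (8888976 to 8890999, WBcel235, as are all positions here). Wild-type libraries had 5076 and 5789 reads at oma-1, and mutant libraries 2541 and 3402. In scaled units these were 16970.9 and 21536.6 CPM in wild type and 10512.6 and 21576.0 CPM in the mutant. The first mutant library was the lowest of the 4, the second was as high as the higher wild-type library, and the groups overlapped. On the log2 scale the mutant stood at -0.26 relative to wild type (SE 0.35, adjusted p = 0.789 in edgeR's quasi-likelihood test). Its 95% interval ran from 0.519 to 1.34 times the wild-type level. At these read counts the width reflects the spread between the 2 libraries of a group more than the depth. With the replicate number of the labels as a block the value was -0.33 (SE 0.14, adjusted p = 0.0825 in edgeR's quasi-likelihood test), also not called. The sign turned without the second wild-type library (0.04) and without the first mutant library (0.17). At oma-1 the genotype effect on RNAi differed from that on L4440 by 0.03 on the log2 scale (SE 0.55, unadjusted p = 0.958).

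**Figure D1:**
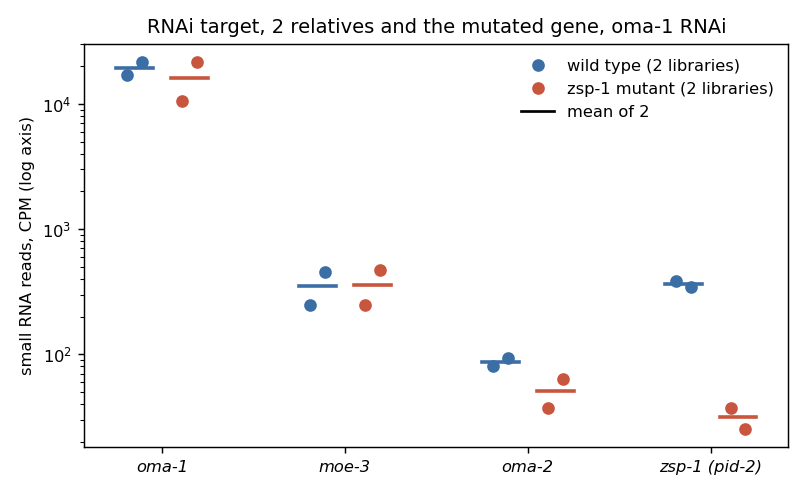
Small RNA reads at oma-1, moe-3, oma-2 and zsp-1 (pid-2) on oma-1 RNAi, in CPM on a log axis; each point is 1 library and each bar the mean of 2. The genotypes overlap at oma-1 and moe-3, while at zsp-1 both mutant libraries lie below both wild-type libraries.

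moe-3, another gene of the same zinc-finger family, had reads on oma-1 RNAi and almost none on L4440. On L4440 it had 1 and 1 reads in wild type and 0 and 0 in the mutant, where oma-1 had 29 and 35 and 42 and 20. On oma-1 RNAi its level did not differ detectably between the genotypes. Wild-type libraries had 74 and 121 reads at moe-3 (chromosome II, 13160545 to 13165733) and mutant libraries 60 and 74. The levels were 349 ± 143 CPM in wild type and 359 ± 156 CPM in the mutant (SD, n = 2 each), and the groups overlapped. The difference was 0.02 on the log2 scale (SE 0.34, adjusted p = 0.988 in edgeR's quasi-likelihood test), with a 95% interval of 0.636 to 1.62 times the wild-type level. Its sign turned with scaling by library totals and without 2 of the libraries. For every 100 reads at oma-1, moe-3 had 1.46 (upper 95% bound 1.83) and 2.09 (95% interval 1.73 to 2.50) in wild type and 2.36 (1.80 to 3.05) and 2.18 (1.70 to 2.74) in the mutant. The first wild-type library was lowest by this measure, and the second wild-type library lay within the intervals of the mutant libraries. These intervals, like the others from read counts below, are exact and cover counting error only.

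oma-2, the close relative that shares the work of oma-1 in oocytes, had far fewer reads. Per 1000 exon bases, oma-1 held 9423, 11958.1, 5837.1 and 11980 CPM in the 2 wild-type and 2 mutant libraries, whereas oma-2 held 51.9, 60.2, 24.1 and 41.0. At oma-2 the wild-type libraries had 24 and 25 reads and the mutant libraries 9 and 10. Both mutant values were lower, but the change was not called (log2 -0.83, SE 0.44, adjusted p = 0.271 in edgeR's quasi-likelihood test). The 5 other tested CCCH genes of the list were not called either, so 0 of its 8 genes rose or fell. At an unadjusted p under 0.05 the count was also 0, as it was with DESeq2. Of all 4567 tested genes, 1025 had such a p and DESeq2 called 483.

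Reads at zsp-1 itself, named pid-2 in the files, went from 388 and 342 CPM in the wild-type libraries to 37.2 and 25.4 CPM in the mutant libraries, the latter from 9 and 4 reads. The log2 fold change was -3.48, with an SE of 0.44 (edgeR's quasi-likelihood test, adjusted p = 1.09e-06). The gene (chromosome I, 93024 to 94884) overlaps Y48G1C.13 on the other strand. These are small RNAs and not the messenger RNA, so the value goes with the label without showing the lesion.

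In the fit to all 8 libraries, losses and gains of small RNAs were nearly equal in number, although losses were harder to detect. In the mutant 382 genes rose (8.36% of those tested) and 337 fell (7.38%), 719 in all (15.7%), at an adjusted p under 0.05 in edgeR's quasi-likelihood test fitted to all 8 libraries. Among the 382 rising genes the median log2 fold change was 2.05 (quartiles 1.44 and 3.33), 198 were past 4-fold and 68 past 16-fold. Among the 337 falling genes the median was -2.06 (quartiles -2.83 and -1.54), 177 were past 4-fold and 31 past 16-fold. The median over all tested genes was -0.07, against -0.13 with scaling by library totals. With the replicate block 490 genes rose and 505 fell. In counts simulated with known changes, 4-fold rises were recovered at 50 of 50 tested genes and 4-fold falls at 24 of 40. The 2 counts therefore do not measure gains and losses with equal power. The number of falls was less stable than the number of rises. With DESeq2 303 genes rose (6.63%) and 180 fell (3.94%), without the second wild-type library 348 rose and 143 fell, and without the first mutant library 307 rose and 145 fell.

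The rising genes went from a median of 67.2 CPM in wild type to 334 in the mutant, and the falling genes from 159 to 35.7. Among rising genes 26 had at most 3 wild-type reads in all, and 1 had none. Among falling genes 46 had at most 3 mutant reads, and 6 had none. Such genes passed the filter on low counts through the genotype with the reads and had to differ. In all but 1 of the rising genes both mutant libraries were above both wild-type libraries, and in all but 1 of the falling genes both were below. Of all tested genes, 21.0% had both mutant libraries above and 27.1% had both below.

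**Figure D2:**
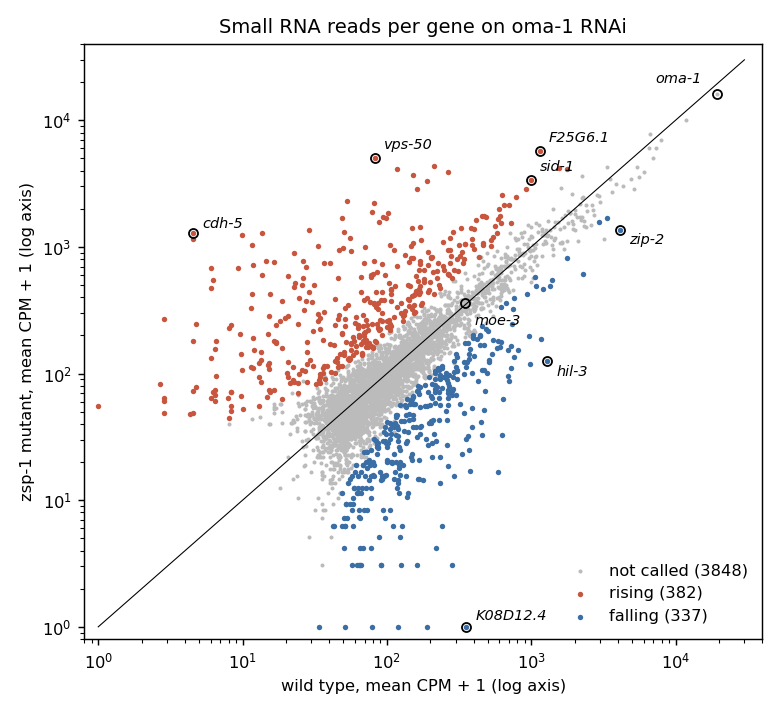
Mean CPM + 1 per gene in the 2 wild-type libraries (x axis, log) and the 2 mutant libraries (y axis, log) on oma-1 RNAi; each point is 1 of 4567 tested genes and the line marks equal levels. The 382 rising and 337 falling genes lie far from the line on both sides, and oma-1, at the upper right, lies near it.

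The genes that gained and the genes that lost small RNAs differed in length and position. Falling genes were shorter than the rest. Their median exon length was 1043 bases, against 1715 for rising genes and 1683 for all tested genes. Of the 969 tested genes under 1000 exon bases, 15.8% fell and 7.22% rose; of the 3598 longer ones, 5.11% fell and 8.67% rose. Falling genes of the autosomes also lay more often toward chromosome ends. With each chromosome cut into 3 equal segments, 75.4% of falling, 60.1% of rising and 58.1% of all tested autosomal genes were in an end segment. Few called genes lay directly beside another gene with the same call. Of the rising genes, 6.81% had a rising gene directly beside them, against 6.22% of all tested genes. For falling genes the values were 4.75% and 3.53%. Neighbours were taken from all 20191 genes in the files, and pairs that share exon bases were not counted. Most of the 20191 genes were not tested, so many neighbours could not be called.

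The largest relative gains were at genes with almost no small RNAs in wild type. The cadherin gene cdh-5 had 1 and 1 reads in the wild-type libraries and 249 and 243 in the mutant libraries, a ratio of 350 (95% interval 96.3 to 2897). ZK673.4 went from 1 and 1 to 253 and 201, a ratio of 323 (88.8 to 2673). At spe-15, which encodes a myosin VI needed for sperm formation, wild-type libraries had 2 and 3 reads and mutant libraries 213 and 249. Both wild-type libraries were near empty at these genes. The other 7 of the 10 largest rises included genes of enzymes and a dense-core vesicle gene. The xanthine dehydrogenase gene xdh-1 went from 3 and 0 to 121 and 134 reads, a ratio of 121 (40.9 to 590). The Nudix hydrolase gene ndx-6 went from 2 and 5 to 233 and 257 reads, and the LIM domain gene ltd-1 from 3 and 0 to 92 and 90. Enzymes that modify sugars were among them too. The sulfotransferase gene chst-1 went from 0 and 1 to 43 and 56 reads, a ratio of 141 (24.7 to 5616), and gly-11, a gene for the first step of O-glycosylation, from 2 and 1 to 113 and 99. K07A12.5 went from 3 and 3 to 183 and 205 reads. ric-19, a dense-core vesicle gene, had no wild-type read and 11 and 10 mutant reads, at least 9.95-fold higher at a floor of 3 reads over both libraries. The largest adjusted p of the 10 was 0.000572 in edgeR's quasi-likelihood test, at ric-19. The rule took the largest changes among called genes without overlap, so their size, separation and small p follow from the choice. Those with at most 3 wild-type reads passed the filter on low counts through the mutant. ndx-6 overlaps rsp-4 on the same strand, and gly-11 and K07A12.5 overlap Y75B8A.8 and asg-1 on the other, so their reads cannot be assigned with certainty.

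The largest relative losses left few or no mutant reads. These genes were chosen by the same rule and passed the filter on low counts through wild type, so their separation was fixed by the choice. K08D12.4 (chromosome IV, 1707296 to 1708691) had 94 and 106 wild-type reads and 0 and 0 mutant reads, which makes it at least 46.9-fold lower. F31C3.6, which overlaps psf-2 on the other strand, went from 52 and 55 to 0 and 0, at least 25.1-fold lower. sup-1, a membrane protein gene found through suppression of an acetylcholine transporter mutant, went from 28 and 38 to 0 and 0, at least 15.5-fold lower. The mutant libraries were empty at all 3 genes. K02E7.12 went from 77 and 83 reads to 1 and 0, a ratio of 113 (19.9 to 4472), and Y48C3A.1 from 59 and 65 to 0 and 1, a ratio of 87.2 (15.4 to 3472). F23B12.4 and T24A6.20 went from 53 and 39 and from 52 and 83 reads to 1 and 0 and 1 and 1. F23B12.4 overlaps dlat-1 on the other strand, as Y41D4A.7, below, overlaps Y41D4A.3. The remaining 3 rested on few reads. fbxc-28, an F-box gene, went from 13 and 30 to 0 and 0 reads (adjusted p = 0.000287 in edgeR's quasi-likelihood test) and lost its call without the second wild-type library (0.0684). Y41D4A.7, with 11 and 17 reads against 0 and 0, lost it without that library (0.156) and without the first mutant library (0.106). F28H6.8, with 3 and 15 against 0 and 0, lost it without the second wild-type library (0.604), either mutant library (0.288 and 0.141) or the second mutant L4440 library (0.0522).

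**Figure D3:**
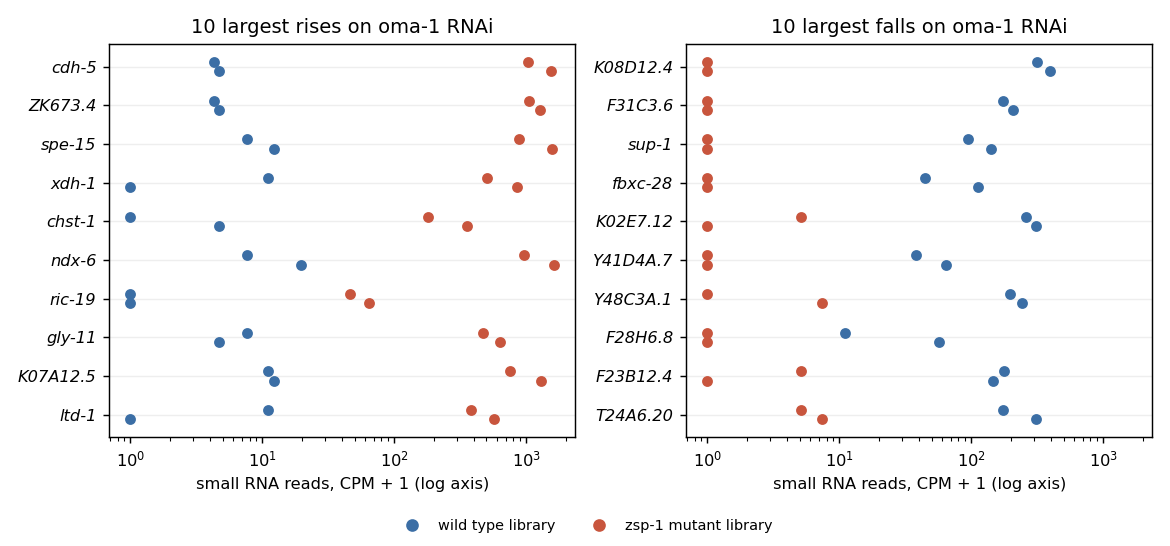
CPM + 1 on a log axis for the 10 genes with the largest rises (left) and the 10 with the largest falls (right) on oma-1 RNAi; each point is 1 library. The genes were chosen for libraries that do not overlap, and 6 of the falling genes have no mutant read.

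In absolute terms, part of the gain and a like part of the loss lay at a few genes. The 20 rising genes with the largest gain in CPM held 29.9% of the summed gain, and the 20 falling genes with the largest loss held 29.5% of the summed loss. vps-50 (chromosome III, 10869193 to 10874528) is needed for dense-core vesicles to mature. It had 23 and 23 reads in wild type and 1040 and 914 in the mutant. That is 81.2 ± 6.13 against 5049.7 ± 1056.5 CPM (SD, n = 2 each; log2 5.95, SE 0.46, adjusted p = 7.3e-10 in edgeR's quasi-likelihood test). The groups at vps-50 stood far apart. F25G6.1 went from 259 and 383 reads to 1168 and 1038, or from 1145.4 ± 395 to 5707.7 ± 1238.1 CPM (SD, n = 2 each). The next largest gains were at genes of the cytoskeleton, adhesion and metabolism. klp-20, a kinesin subunit of transport in cilia, went from 212 to 4315.2 CPM, and seld-1, which encodes selenophosphate synthetase, from 93.6 and 138 CPM in the wild-type libraries to 3330.4 and 4908.8 in the mutant libraries. tns-1 and tln-1, the genes of tensin and talin at integrin adhesions, went from 263 to 3876.7 and from 160 to 2886.6 CPM. The chitin synthase gene chs-2 went from 150 to 3678.5 CPM and W02B8.2 from 188 to 3286. The rule for naming took genes whose libraries do not overlap, so their separation was fixed by the choice. Each of the 8 kept its call in the 15 other fits. klp-20 shares bases with hpo-38 on its own strand, and hpo-38 rose as well (48.2 to 1677.5 CPM). seld-1 overlaps afmd-2 on the same strand, and tns-1 and tln-1 overlap genes on the other.

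The largest absolute losses were at genes with many small RNAs in wild type. zip-2, a bZIP transcription factor of the response to infection, had 1014 and 1310 reads in wild type and 312 and 226 in the mutant. Its level fell from 4131.9 ± 1048.9 to 1362.1 ± 101 CPM (SD, n = 2 each; log2 -1.60, SE 0.32, adjusted p = 0.000486 in edgeR's quasi-likelihood test). E01G4.5 had 622 and 667 reads against 147 and 95. The X-linked linker histone gene hil-3 had 361 and 370 reads against 31 and 19, or 1291.7 ± 120 against 124 ± 5.48 CPM (SD, n = 2 each). gsa-1, which encodes the stimulatory G protein alpha subunit, had 277 and 374 against 47 and 28. These 4 genes kept their call in the 15 other fits. The other 4 were less firm. C04G6.6 fell from 1758.9 to 813 CPM and lost its call in 4 fits, among them those without the second wild-type (adjusted p = 0.207) or first mutant library (0.288). Y110A2AL.10 fell from 1349.6 to 487 CPM and lost it in the same pair (0.160 and 0.149). bath-20 and F59H6.14 fell by 0.99 and 0.91 on the log2 scale and lost their calls in 6 and 8 fits, with adjusted p up to 0.471 and 0.531 without the second wild-type library.

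The same genotype difference was present in animals that had eaten no oma-1 dsRNA. To keep the L4440 libraries out of the choice of genes, calls were also made from the 4 oma-1 RNAi libraries alone, which gave 382 rising (8.56%) and 377 falling genes (8.45%) of 4464. With the fit to 8 libraries, 370 of these rising and 323 of these falling genes were shared. On oma-1 RNAi the rising genes held 4.78% and 5.42% of reads in the wild-type libraries and 21.2% and 24.1% in the mutant libraries, which the choice of genes fixes. In the fit to 8 libraries, 399 genes rose (8.74%) and 350 fell (7.66%) on L4440. On L4440 the rising genes of the 4-library fit held 4.41% and 5.60% in wild type and 22.6% and 25.3% in the mutant. The falling genes held 12.3% and 11.2% on L4440 in wild type and 3.14% and 3.48% in the mutant. On L4440 both sets therefore separated the genotypes, in the direction seen on oma-1 RNAi. An exact permutation test of 2 libraries against 2 cannot pass 0.05, so none is given. Gene by gene, 369 of the 382 rising genes (96.6%) had both mutant L4440 libraries above both wild-type ones, against 22.9% of all 4464 genes. Of the 377 falling genes, 327 (86.7%) had both below, against 25.3%.

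**Figure D4:**
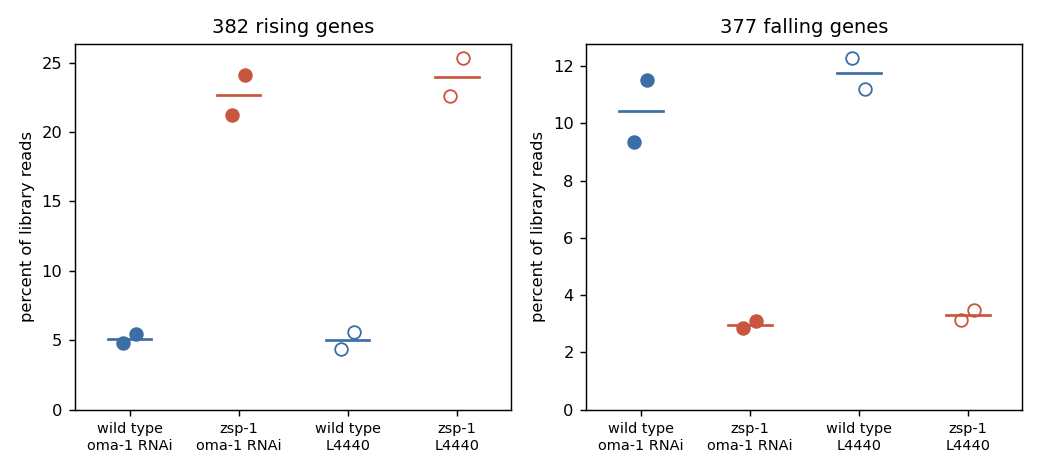
Percent of each library's reads at the 382 rising (left) and 377 falling genes (right) called from the 4 oma-1 RNAi libraries alone; each point is 1 library, lines are means of 2, and open points are L4440 libraries that took no part in the choice. The wild-type and mutant L4440 libraries separate as the oma-1 RNAi libraries do.

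In the fit to 8 libraries no gene was shown to respond to zsp-1 loss differently under the 2 foods. The test of that difference called 0 of 4567 genes (0% with edgeR's quasi-likelihood test and with DESeq2), and 113 genes (2.47%) had an unadjusted p under 0.05. Without the filter on low counts 1 gene was called, and with the replicate block 2 were. The median SE of the difference was 0.577 on the log2 scale, so the test can miss differences of that order and much larger ones. At cdh-5 the difference was 2.84 (SE 0.91, unadjusted p = 0.00444 in edgeR's quasi-likelihood test) and at sup-1 -3.96 (SE 1.84). Neither was called. The genes called on oma-1 RNAi with an adjusted p over 0.2 on L4440 numbered 21 among the rising and 53 among the falling. kin-1, which encodes the catalytic subunit of protein kinase A, had 19 and 17 wild-type and 2 and 1 mutant reads on oma-1 RNAi, a ratio of 8.44 (95% interval 2.67 to 42.8). On L4440 kin-1 had 14 and 13 wild-type and 14 and 6 mutant reads. The homeobox gene ceh-82 had 22 and 32 against 3 and 0 reads on oma-1 RNAi, and 6 and 12 against 9 and 3 on L4440. The log2 changes on L4440 were -0.72 at kin-1 and -0.88 at ceh-82, with adjusted p of 0.428 and 0.466 in edgeR's quasi-likelihood test. The other falling genes named by this rule were R03D7.2, the fatty acid-binding protein gene lbp-1 and the F-box gene fbxb-45. In the rising direction aass-1, an enzyme of lysine breakdown, had 6 and 5 against 24 and 16 reads on oma-1 RNAi and 11 and 1 against 19 and 9 on L4440. The others were F53A3.1, btb-4, H06I04.1 and the nuclear receptor gene nhr-64, and all 4 lost their call on oma-1 RNAi in 1 to 3 of the other fits. lbp-1 and fbxb-45 lost it in 1 each, without the second wild-type (adjusted p = 0.0904) and without the first mutant library (0.134). The unadjusted p of the difference between foods (edgeR's quasi-likelihood test) was 0.0138 at ceh-82, the lowest of the 10, and 0.255 at H06I04.1, the highest. F53A3.1 overlaps pqn-41 on the other strand.

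Lists of genes are described below by counts, to be read against the 8.36% of all tested genes that rose and the 7.38% that fell. Members with few reads in a genotype passed the filter on low counts through the other, which bears on the share of calls in a list. In the pathway that takes up dsRNA, 2 of 11 tested genes of uptake and primary RNAi rose (18.2%) and 0 fell. sid-1, the dsRNA channel that lets RNAi spread between cells, had 244 and 316 reads in wild type and 646 and 633 in the mutant. Its level rose from 996 ± 254 to 3343.6 ± 949 CPM (SD, n = 2 each). The log2 change was 1.75 (SE 0.34, adjusted p = 0.000481 in edgeR's quasi-likelihood test). Both mutant libraries at sid-1 lay above both wild-type ones, as in 21.0% of all tested genes. rde-11, a factor that amplifies siRNAs from dsRNA, had 68 and 72 against 146 and 110 reads (log2 1.39, SE 0.33) and lost its call without the first wild-type library (adjusted p = 0.0597 in edgeR's quasi-likelihood test). Both genes were also called on L4440, with log2 changes of 1.99 at sid-1 and 1.63 at rde-11. Among 14 tested genes of siRNA amplification, rrf-1, an RNA-dependent RNA polymerase that makes secondary siRNAs, was the 1 call (7.14%). It had 86 and 80 reads against 34 and 17 (log2 -1.21, SE 0.33, adjusted p = 0.00964 in edgeR's quasi-likelihood test). That fall was lost in 4 of the 15 other fits: with DESeq2 (0.0698), without the second wild-type library (0.105) and without the first (0.064) or second (0.236) mutant library.

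Among 16 tested genes of the Z granule and RNAi inheritance, pid-2 fell and the nuclear RNAi gene nrde-1 rose. nrde-1 had 29 and 43 against 57 and 45 reads, overlaps C14B1.8 on the other strand, and lost its call in 7 fits (adjusted p 0.055 to 0.385), among them those without the first wild-type library or either mutant library. Of 17 tested P granule genes, glh-1, which encodes a Vasa helicase, was the 1 call. It had 488 and 417 against 252 and 222 CPM and an adjusted p of 0.0466 in edgeR's quasi-likelihood test, and it lost its call in 11 of the 15 other fits, with values up to 0.419 and without any single one of the 8 libraries. On L4440 its log2 change was -0.14. Of 15 tested loci of siRNAs that need the Argonaute ERGO-1, 2 fell and kept their calls in the other fits. They were E01G4.5, above, and C18D4.6, with 55 and 60 against 7 and 4 reads (204 ± 27.8 against 27.2 ± 2.54 CPM, SD, n = 2 each).

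Several lists had no call in either direction. They were the CCCH genes above, the Dicer and ERI complex (10 tested), Argonautes (9), piRNA biogenesis (13), germline translational regulators (22), eggshell and oocyte surface (13), meiotic chromosomes (20), the cytosolic (33) and mitochondrial (32) ribosomal proteins, proteasome subunits (31), the pals family (2) and the hypodermis markers (1). Together they hold 192 distinct tested genes. At an unadjusted p under 0.05 there were 9, against 1025 of all 4567 tested genes. With DESeq2 0 were called, against 483 of all. The lists were grouped for having no call, so low counts follow from the choice. Nor does the lack of calls show that a list was unchanged. Among lists of more than 2 tested genes, median log2 changes ran from -0.42 for cytosolic ribosomal proteins to 0.21 for piRNA biogenesis, against -0.07 for all tested genes. The 2 pals genes had a median of -0.67, and the 1 hypodermis marker had 0.76. In the fit to 8 libraries some members were called on L4440. They were 2 translational regulators, 2 cytosolic ribosomal proteins, and 1 each of the Dicer and ERI, meiotic, mitochondrial ribosomal and pals lists. The replicate block, a fit with the replicate number as a term, called a single gene in each of the Argonaute, piRNA, eggshell and pals lists, and the Dicer and ERI list gained a rise and a fall in it. A Dicer and ERI gene fell in the fit to the 4 oma-1 RNAi libraries alone, and a pals gene fell there, without the filter and with library totals. In the fits without a wild-type L4440 library, single genes of the Dicer and ERI, piRNA and pals lists were also called.

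Of 147 neuropeptide and insulin-like peptide genes, 9 had enough reads to be tested and 105 had no read in the 4 libraries. Of the 9, 6 fell (66.7%, against 7.38% of all tested genes) and 0 rose, with a median log2 fold change of -2.38. Except at ins-5, the falling genes had fewer than 10 reads in each mutant library on oma-1 RNAi. Those genes passed the filter on low counts through wild type, so the share and the median depend on which genes could be tested. The insulin-like gene ins-17 had 86 and 101 reads in wild type and 3 and 5 in the mutant, or 332 ± 62.4 against 22.1 ± 13.6 CPM (SD, n = 2 each; log2 -3.99, SE 0.46, adjusted p = 3.38e-07 in edgeR's quasi-likelihood test). nlp-62 had 26 and 40 against 0 and 4 reads, nlp-52 had 49 and 64 against 6 and 9, and ins-5 had 141 and 188 against 43 and 29. At these 4 genes both mutant libraries lay below both wild-type ones, as in 27.1% of all tested genes, and no other fit ended the call. nlp-12 (12 and 24 against 1 and 0 reads) and nlp-77 (13 and 26 against 4 and 1), which complete the calls and were added after their values were seen, both lost their call without the second wild-type library (adjusted p = 0.192 and 0.466, edgeR's quasi-likelihood test). nlp-77 also lost it with DESeq2 (0.0996) and without the first (0.0626) or second (0.149) mutant library. In the fit without the second wild-type library 4 of the 6 falls were left.

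Dense-core vesicles pack such peptides. Of 10 tested dense-core vesicle genes, 4 rose, where 8.36% of all tested genes did, and 0 fell. The other 6 passed in neither direction, and the median over the 10 was 0.52. In 4 other fits (the 4 oma-1 RNAi libraries alone, library totals, the replicate block and without the first wild-type library) 1 of the list fell. Besides vps-50 and ric-19, ida-1, a receptor-like membrane protein of these vesicles, had 13.4 and 29.8 CPM in the wild-type and 492 and 476 CPM in the mutant libraries (21.6 ± 11.6 against 484 ± 11.8 CPM, SD, n = 2 each). egl-21, the carboxypeptidase that trims neuropeptides, had 11 and 25 against 32 and 33 reads and its call ended with DESeq2 (adjusted p = 0.112), without the first wild-type library (0.331) and without the second mutant library (0.184). ric-19 and egl-21 are also the 2 rising members among 3 tested neuron markers. The 18 neuron markers together held 52 and 71 reads in wild type and 58 and 56 in the mutant. The defining neuron markers unc-119, rab-3 and snb-1 held 6 and 6, 4 and 5, and 17 and 14 reads in wild type. In the mutant they held 2 and 2, 1 and 0, and 8 and 5 reads. snb-1 was tested and not called. The part of neurons in these changes was not tested. Muscle markers had 0 of 14 members tested and 8 with no read in the 4 libraries, and intestine markers 0 of 16 tested and 6 with no read.

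Glycosyltransferase and sulfotransferase genes had 7 rises (36.8%, against 8.36% of all tested genes) and 0 falls among 19 tested of 113, with a median of 0.06. Besides chst-1 and gly-11, bre-1, which makes a sugar nucleotide for glycolipids, had 3 and 6 reads in wild type and 48 and 45 in the mutant. gly-14 and gly-13, genes of the enzyme that starts complex N-glycans, had 2 and 10 against 84 and 107 and 92 and 93 against 294 and 254 reads. gly-3 and gly-9, named after their values were seen, had 14 and 11 against 25 and 22 and 41 and 43 against 68 and 58 reads, and both lost their calls with DESeq2 (adjusted p = 0.103 and 0.0543) and without the second mutant library (0.077 and 0.149, edgeR's quasi-likelihood test). gly-9 also lost it without the first wild-type library (0.158). Of 53 tested genes of vacuolar sorting and endosomes, 4 rose (7.55%) and 3 fell (5.66%), shares close to those of all tested genes, with a median of 0.06. tbc-6 (7 and 8 against 125 and 137 reads) and tbc-14 (15 and 9 against 39 and 27) carry the domain of Rab GTPase-activating proteins. rme-6, an activator of the endosomal GTPase RAB-5, went the other way, with 53 and 66 against 8 and 5 reads. The 26 tested nuclear pore genes held 1 call, npp-26, with 2 and 3 reads in wild type and 19 and 21 in the mutant.

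Large gene families had calls in both directions. Of 60 tested F-box genes (332 in the files), which encode adaptors for protein degradation, 19 fell (31.7%, against 7.38% of all tested genes) and 4 rose (6.67%, against 8.36%), with a median of -0.71. The falls numbered 8 with DESeq2, 4 without the second wild-type library and 7 without the first mutant library, where all genes together had 180, 143 and 145. fbxb-56 had 301 and 443 CPM in the wild-type and 16.5 and 31.7 CPM in the mutant libraries, and fbxa-136 had 33 and 19 reads against 1 and 0. fbxa-192 rose, with 90.3 and 78.1 against 530 and 736 CPM. Each of these 3 separated the genotypes, as 48.0% of all tested genes did in either direction, and kept its call in the other fits. Of 31 tested BTB and MATH domain genes, another family of degradation adaptors, 8 rose (25.8%, against 8.36% of all tested genes) and 5 fell (16.1%, against 7.38%), with a median of 0.33. Only 3 of the rises were left without the first wild-type library, and of the falls 1 without the second wild-type and 0 without the first mutant library. bath-36 had 10 and 21 against 180 and 177 reads and bath-1 had 46 and 50 against 171 and 132. Close copies in these families can share reads, and how the authors' counting treated such reads is not given in the sources used here.

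Of 26 tested nuclear hormone receptor genes, 6 rose (23.1%, against 8.36% of all tested genes) and 3 fell (11.5%, against 7.38%), with a median of 0.01. nhr-47, which overlaps hpo-15 on the other strand, had 23.4 and 7.44 CPM in the wild-type and 811 and 710 CPM in the mutant libraries, and nhr-243 had 2 and 5 reads against 97 and 124. The X-linked gene nhr-1 fell, with 155 and 236 against 16 and 17 reads. nhr-3, X-linked as well, had 77 and 76 against 15 and 15 reads, and lost its call without the first mutant library (adjusted p = 0.0826 in edgeR's quasi-likelihood test). Among 15 tested histone genes 2 fell, hil-3 and the core histone gene his-41 of chromosome V, with a list median of -0.61. his-41 overlaps C50F4.6 on its own strand. his-41 had 14 and 20 against 2 and 2 reads and its call ended with DESeq2 and without any single one of the 4 oma-1 RNAi libraries (adjusted p 0.0502 to 0.377). Of 6 tested sperm genes, spe-15 rose and spe-47, a gene of sperm activation, fell, with 33 and 28 against 3 and 4 reads. Of 7 collagen genes, col-38 rose (27 and 33 against 90 and 84 reads) and col-97 fell (14 and 23 against 4 and 1) with a call lost in the same 5 fits (0.0632 to 0.563). col-97 overlaps ZK1010.12 on the other strand. Of 8 homeobox genes ceh-82 was the 1 call.

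Of the 6 chromosomes, the X had the highest share of falls. Of its 217 tested genes, 56 fell (25.8%) and 19 rose, with a median log2 fold change of -0.56. The falls numbered 28 with DESeq2, 20 without the second wild-type library and 22 without the first mutant library, where all chromosomes together had 180, 143 and 145. F59C12.4 had 166 and 168 reads in wild type and 3 and 3 in the mutant, or 590 ± 49.5 against 15.7 ± 4.68 CPM (SD, n = 2 each; log2 -5.24, SE 0.46, adjusted p = 4.47e-09 in edgeR's quasi-likelihood test). In the other direction gfi-3 had 49 and 47 against 318 and 247 reads. F39C12.1, which overlaps R08E3.1 on the other strand, had 52 and 46 against 278 and 176. Rises outnumbered falls on chromosomes I to IV and not on V. There were 86 rises and 69 falls among 1038 genes on I, 70 and 62 among 854 on II, 93 and 51 among 1002 on III, 64 and 41 among 774 on IV and 50 and 58 among 682 on V. Their medians lay between -0.11 on V and -0.01 on III.

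**Figure D5:**
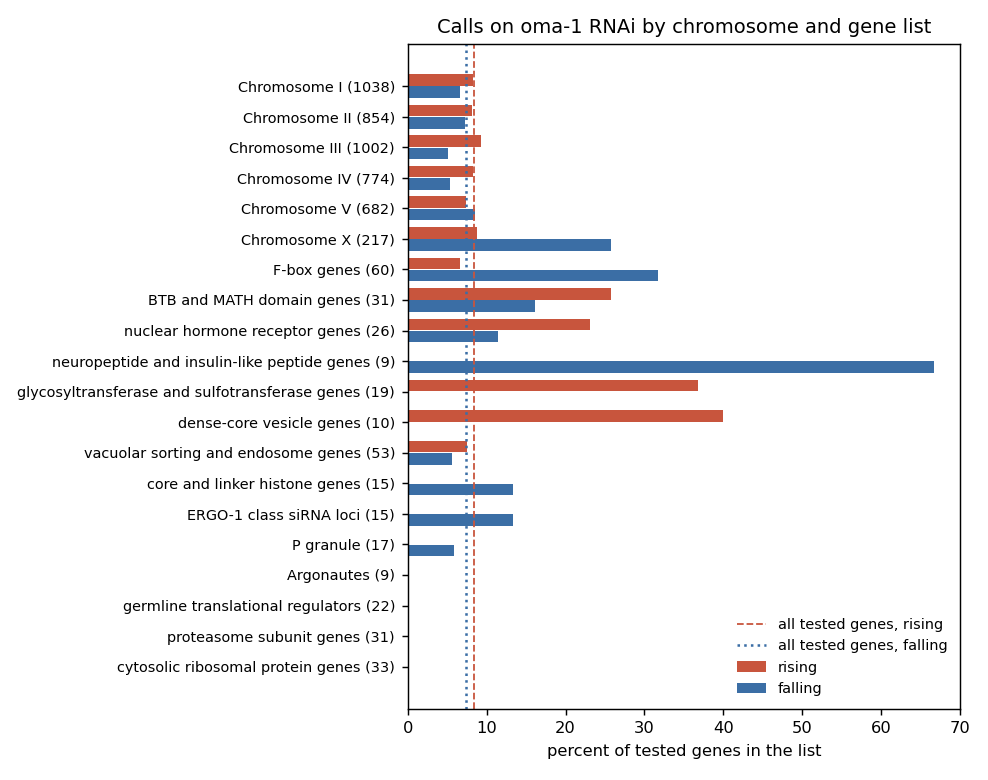
Percent of tested genes that rose or fell on oma-1 RNAi, by chromosome and gene list, with the number tested in brackets; dashed and dotted lines mark the 8.36% of all tested genes that rose and the 7.38% that fell. The bars of falls reach furthest past their line at the peptide genes, the F-box genes and chromosome X.

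The 4 genes with the smallest p on each autosome were all gains, and they came from different families; those not yet described follow. On chromosome I, C36B1.9 had 19 and 11 reads in wild type and 478 and 409 in the mutant, and haf-9, a transporter of gut granules, had 2 and 4 against 149 and 131. On chromosome II, C44B7.11 had 9 and 7 against 281 and 245 reads. On chromosome III, F01F1.3 had 25 and 21 against 479 and 386, and the rhomboid protease gene rom-1 had 5 and 9 against 176 and 131. These 5 genes had at most 25 reads in any wild-type library and at least 131 in each mutant library. On chromosome IV, R102.4 had 15 and 16 against 225 and 226 reads, and atgp-1, a subunit of amino acid transporters, had 38 and 20 against 378 and 340. On chromosome V, egl-10, a regulator of G protein signalling, had 12 and 16 against 298 and 219 reads, Y39H10A.6 had 9 and 11 against 149 and 137, and C39F7.5 had 26 and 14 against 211 and 176. All of these genes kept their call in the 15 other fits and rose on L4440 as well, with log2 changes between 4.65 and 5.63. F01F1.3 and rom-1 overlap aldo-2 and F26F4.12 on the other strand, and Y39H10A.6 overlaps chk-1 on its own strand.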

How the data were processed

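Small RNAs of about 18 to 35 nt were cut from a gel and cloned by a method that needs no 5′ monophosphate, per the labels' protocols, so triphosphate-bearing siRNAs were captured. The authors deposited whole-number read counts per gene that were not normalized. The submitters' processing notes name cutadapt 1.14, TopHat2 2.1.1, featureCounts 1.6.0 and build WBcel235. Nothing is given in the sources used here on strand, on a selection by read length or first base, or on reads with several matches. Sense and antisense reads, and fragments of the ingested RNA and siRNAs, cannot be told apart. Matched to the Ensembl annotation, 18960 genes had a current symbol, 733 an older symbol, 327 a RefSeq name only and 171 no match; 2627 overlapped a gene on the other strand. Matched spans were identical for 5473 genes and differed for 14220, so positions are those of the files.

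Counts were tested in R 4.3.3 with edgeR 4.0.16: filterByExpr with a minimum count of 10, TMM, 4 group means over all 8 libraries with 4 residual degrees of freedom, and quasi-likelihood tests with Benjamini-Hochberg adjustment over 4567 genes, called under 0.05. SE is the size of the log2 change divided by the root of the F statistic. Library totals on oma-1 RNAi were 172615 to 277543 reads. With 1 to 3 reads in a group the ratio of pooled shares has an exact 95% interval, and with 0 a floor of 3 reads over the group. Alternatives were DESeq2 1.42.0, its size factors, totals, no filter, the 4 oma-1 RNAi libraries alone, oma-1 left out, a replicate block and each library left out, 15 fits in all. The scripts were tested on simulated counts.

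Named genes were oma-1, oma-2, moe-3 and pid-2; among called genes without overlap and with a mean of at least 10 CPM, the 10 largest log2 changes and 8 largest CPM differences in each direction; up to 4 calls per list; and up to 5 in each direction with an adjusted p over 0.2 on L4440. The members and the lists (pathways, families, cell type markers and chromosomes) were chosen with earlier results of these data known. Lists are described by counts and medians and were not tested.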

Additional observations from a re-analysis of the deposited data

How the results depend on the processing

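Of the 719 calls, 232 rises and 111 falls held in all 15 other fits. Leaving out single libraries gave 264 to 434 rising and 143 to 379 falling genes, lowest for falls without the second wild-type (143) and first mutant (145) oma-1 RNAi libraries, where 70.9% and 67.9% of calls were rises, against 53.1% with all 8 libraries. DESeq2 called 180 falling genes, and 62.7% of its calls were rises. With library totals 367 genes rose and 373 fell, and without the filter, over 12819 genes, 383 and 372; the cause was not tested. The log2 change at oma-1 ranged from -0.78 to 0.17 when libraries were left out, with reversed signs without the second wild-type (0.04) and first mutant library (0.17). At moe-3 it was -0.06 with library totals, and it ranged from -0.40 to 0.64 with a library left out, turning to -0.38 without the first wild-type and -0.40 without the second mutant library. The difference between foods was called at 1 gene without the filter, at 2 with the replicate block and at 0 to 7 with a library left out, 7 without the second wild-type L4440 library. On L4440 the falling genes chosen from the 4 oma-1 RNAi libraries took 11.7 ± 0.719% of wild-type reads and 3.31 ± 0.237% of mutant reads, against 9.59 ± 1.37% and 3.01 ± 0.16% for those of the 8-library fit (SD, n = 2 each). With the replicate number as a block 490 genes rose and 505 fell, including all 382 and 337. Same-numbered libraries deviated together, with r of 0.171 to 0.347 between pairs of groups, but there are only 2 numbers a group and the labels do not say what a number marks, so the block is given as an alternative; it put oma-1 at -0.33 (SE 0.14, adjusted p = 0.0825). Of 94 called genes among the 97 named by rule, 72 kept their call in the 15 fits; of 1438 values of the named genes over the fits, 1360 kept direction and side of the threshold, 75 lost the call and 3, all at moe-3, turned.

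Depth limits what the falls show. A single read was worth 3.34 to 6.34 CPM, 46 falling genes had at most 3 mutant reads, and p-values rest on 2 libraries a group.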

Other observations

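A few genes of G protein and cyclic AMP signalling were picked after their values were seen, with no list fixed or tested. gsa-1 and kin-1 fell, as given above. egl-10, a regulator of G protein signalling, had a mean of 49.8 ± 13.7 CPM in wild type and 1310.9 ± 110 CPM in the mutant (SD, n = 2; adjusted p = 1.16e-09 in edgeR's quasi-likelihood test). acy-1, which encodes an adenylyl cyclase, had 16 and 15 reads in wild type and 26 and 24 in the mutant (log2 1.21, SE 0.38), with a call that ended with DESeq2 (adjusted p = 0.201), without either wild-type library (0.13 and 0.0645) and without the second mutant library (0.185 in edgeR's quasi-likelihood test). goa-1, the inhibitory G protein gene, eat-16, pde-1 and pde-2 were not called, and kin-2 had too few reads to be tested. Among adhesion genes picked in the same way, tln-1, tns-1 and cdh-5 rose, and pat-3, unc-112, hmr-1, hmp-1 and hmp-2 were not called. ina-1, which encodes an integrin alpha subunit, had 4 and 11 against 15 and 17 reads (log2 1.61, SE 0.54) and lost its call in 6 fits, among them those without the first wild-type (adjusted p = 0.396), first mutant (0.0539) or second mutant library (0.327).

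A stretch of chromosome II from 1883596 to 2046656 held 13 tested genes of the BTB and MATH families, of which 7 rose and 2 fell, where 8.36% and 7.38% of all tested genes did. The stretch was chosen after the values were seen, so the count supports nothing. math-6, bath-2, bath-21, bath-1, bath-5, btb-4 and bath-24 rose, and math-31 and bath-20 fell. The falling gene F59H6.14 lies between btb-4 and bath-19. bath-1 went from 170 ± 22.8 to 772 ± 91.7 CPM and bath-24 from 524 ± 127 to 1129.3 ± 286 CPM, while bath-20 went from 3339 ± 618 to 1681.8 ± 79.1 CPM (SD, n = 2 each). Without the first wild-type library bath-2, bath-21, bath-5, btb-4 and bath-24 lost their calls, and math-31 lost its call without the first mutant library. bath-21, bath-5 and bath-24 also lost theirs without the second mutant library, and bath-5 without the second wild-type library. With DESeq2 the calls ended at bath-21 (adjusted p = 0.0501), bath-5 (0.123) and btb-4 (0.0558). Reads can be shared between close copies of these genes, and their part in the values was not tested.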
